A study of Homo sapiens with 30 samples.

Results

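The high dose of Okbyeongpung-san was compared with vehicle in HT29, an established cell line from a human colorectal adenocarcinoma. Libraries were chosen by their titles: 2 libraries labelled as the high dose (replicates 2 and 3) and 3 vehicle libraries (replicates 1 to 3), or 5 of the 30 RNA sequencing libraries analysed here. The treated cells received a 70% ethanol extract of Okbyeongpung-san labelled 500 µg/mL for 24 h, and the vehicle cells received dimethyl sulfoxide (DMSO) for 24 h. DMSO stood at 0.1% according to the labels but at 2% according to the series' design, which leaves the solvent content uncertain. The labelled dose is uncertain too, since the design replaces 500 µg/mL by the IC20 (the dose that inhibits by 20%) for any extract whose IC20 was lower. The extract was also used at 100 µg/mL and 20 µg/mL, with 2 libraries each (replicates 2 and 3), and these doses are given here as a reference. Replicate 2 of each dose and all vehicle libraries carry batch E in their titles and replicate 3 of each dose carries batch D. The meaning of a batch is not explained. Ethanol extracts of 2 other formulas, Soshiho-tang and Yijin-tang, serve as a further reference. They were labelled 20 µg/mL for 24 h, with 3 libraries each (replicates 1 to 3), all of batch E. Library names place the vehicle apart from the extract libraries, and an effect of treatment cannot be told apart from one of that naming set. The labels do not say whether replicates are separate cultures, so p-values measure the spread between these libraries, which may be technical.

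Okbyeongpung-san is an East Asian herbal formula of Astragalus root, Atractylodes rhizome and Saposhnikovia root. Plant extracts carry many small aromatic and electrophilic compounds, and gut epithelial cells meet such compounds through well described sensor pathways. The aryl hydrocarbon receptor (AHR) is a ligand-activated transcription factor that turns on enzymes such as CYP1A1, which oxidise foreign compounds. NRF2 (NFE2L2) is held down by KEAP1, and when KEAP1 is modified by electrophiles NRF2 turns on genes for glutathione synthesis, quinone reduction and aldehyde reduction. Sterol synthesis is governed by SREBP2, which is held in the endoplasmic reticulum by INSIG proteins when sterols are plentiful, while LXR turns on sterol export.

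Total counts in the 5 libraries lay between 18.477 M and 36.162 M. Expression is given as CPM, counts per library size scaled between libraries by TMM, not per transcript length, so levels are compared between libraries and not between genes. All 14 colorectal epithelium markers on a fixed list were measured, with EPCAM, an epithelial adhesion protein, at 447 to 575 CPM. Of 8 leukocyte markers CD3E, CD2 and MS4A1 were listed at 0 in all libraries of vehicle and this extract, PTPRC did not exceed 0.0464 CPM, and CD79A did not exceed 0.243 CPM. The other 3, LYZ, CD68 and CD14, passed the filter; LYZ, the lysozyme gene that secretory cells of the gut also express, read 1430 to 1690 CPM and made up nearly all of the list's sum of 1440 to 1700 CPM. Of 6 endothelium markers CDH5 and ERG were listed at 0, PECAM1 and TEK passed the filter, and the list summed to 1.88 to 2.69 CPM. None of the 5 leukocyte and endothelium markers tested was called by edgeR (0 at an unadjusted p below 0.05; 0 by DESeq2 and 0 by limma voom) at 500 µg/mL against vehicle. Mitochondrial transcripts made up 11.48% to 13.93% of the counts in vehicle and 10.41% and 10.26% in the treated libraries. The first principal component of the 9 libraries of vehicle and this extract held 20.4% of the variance. On it the vehicle libraries lay between -26.77 and -13.77 and the treated ones at 13.13 and 17.96. Replicate 2 of 100 µg/mL, at -9.132, lay nearer to vehicle than did its partner at 13.82.

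At 500 µg/mL 8 of 10 AHR targets and 15 of 24 NRF2 targets were higher than in vehicle, and 12 of 25 genes of cholesterol synthesis and uptake and 5 of 18 goblet and secretory genes were lower. The lists and their members were chosen with earlier results of these data known, so these counts describe the data and are not a test. Of 15762 genes tested, 690 were called at an adjusted p below 0.05 (4.38%; edgeR's quasi-likelihood test with Benjamini-Hochberg adjustment), 345 higher (2.19%) and 345 lower (2.19%). Most of these differences were small: the median absolute log2 fold change of the called genes was 0.4, 145 genes differed at least 1.5-fold and 41 at least 2-fold. The treated and vehicle libraries did not overlap in 6225 genes (39.5%), so that separation by itself is common here. It held for 45.9% of genes between 500 and 20 µg/mL, and against vehicle for 28.6% at 100 µg/mL and 38.2% at 20 µg/mL. Against the same vehicle libraries 17 genes (0.108%) were called at 100 µg/mL, 7 higher (0.0444%) and 10 lower (0.0634%), and 43 (0.273%) at 20 µg/mL, 22 higher (0.14%) and 21 lower (0.133%). Against the 2 libraries of 20 µg/mL, 500 µg/mL gave 88 called genes (0.558%), 39 higher (0.247%) and 49 lower (0.311%). Against 6 batch E libraries of 2 other formulas at 20 µg/mL, Soshiho-tang and Yijin-tang, it gave 578 of 16022 (3.61%), 264 higher (1.65%) and 314 lower (1.96%). These 6 libraries are not vehicle, and serve here as a second set of low-exposure cells.

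The number of called genes rested heavily on single libraries. Without treated replicate 2 it was 55 and without treated replicate 3 it was 58, both with 1 treated library left, whose spread was then taken from the other groups. Without vehicle replicate 3 it was 171, without vehicle replicate 1 it was 1279 and without vehicle replicate 2 it was 1358. Within batch E, where 1 treated library met the 3 vehicle libraries, 22 genes were called; every p within batch E rests on that lone treated library, which is assumed to vary like the other groups. No value can be given within batch D, which held no vehicle library, and 155 genes were called with batch as a term. With only the 5 libraries in the fit 216 genes were called. Against 20 µg/mL, leaving out any 1 of the 4 libraries compared gave 12 to 21 genes. Against the other formulas it gave 164 without treated replicate 2, 178 without treated replicate 3 and 365 without replicate 2 of Yijin-tang.

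Of the AHR targets on the list, 8 of the 10 tested were higher and none was lower. Their median log2 fold change was 0.56, beside 0.00 for all genes tested. CYP1A1, the classic AHR target that oxidises polycyclic aromatic compounds, is encoded on chromosome 15 at 74719542 to 74725610 (GRCh38, GENCODE 29). Its vehicle libraries read 0.698, 0.599 and 0.525 CPM and its treated libraries 4.12 and 2.77 CPM. Both treated libraries were far above every other library of this extract: 100 µg/mL gave 1.02 and 0.749 CPM and 20 µg/mL gave 0.438 and 0.574 CPM. The difference from vehicle was 5.73-fold, or a log2 fold change of 2.52 ± 0.25 (SE), with an edgeR adjusted p of 0.00018. Within batch E, with 1 treated library, it was 2.75. The DESeq2 test gave CYP1A1 no adjusted p and called 7 of the 10 AHR targets higher. Its mean was 0.607 ± 0.0868 CPM (SD, n = 3) in vehicle and 3.44 ± 0.951 CPM (SD, n = 2) at 500 µg/mL.

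CYP1B1, a related oxidase that also acts on estrogens, read 46.4, 48.3 and 43.5 CPM in vehicle and 87.4 and 87.1 CPM at 500 µg/mL. The treated libraries were nearly equal and clear of all others, since 100 µg/mL gave 56.2 and 62.2 CPM and 20 µg/mL gave 53.6 and 53.6 CPM. The log2 fold change was 0.95 ± 0.071 (SE; edgeR adjusted p = 2.1e-05). ALDH3A1, an aldehyde dehydrogenase, read 26.4, 26.4 and 30.3 CPM in vehicle against 51.8 and 45.7 CPM, a log2 fold change of 0.84 ± 0.084 (SE; edgeR adjusted p = 0.00018). Its lowest libraries were those of 20 µg/mL, at 22.9 and 22.5 CPM. ABCG2, an efflux pump that expels drugs and plant compounds from epithelial cells, rose from 62.4, 64.7 and 64.0 CPM to 109 and 106 CPM. Its log2 fold change was 0.78 ± 0.061 (SE; edgeR adjusted p = 2.9e-05), and 20 µg/mL (78.0 and 77.6 CPM) lay between vehicle and 500 µg/mL.

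The remaining AHR targets that rose were TIPARP, a feedback inhibitor of AHR, NQO1, UGT1A6 and ALDH1A3, with log2 fold changes between 0.51 and 0.58. UGT1A6 shares exons with the other UGT1A genes, so its share of the reads is less certain. AHRR, the AHR repressor, read 5.39, 4.63 and 5.33 CPM in vehicle and 5.95 and 5.92 CPM at 500 µg/mL, and the amino acid transporter SLC7A5 had a log2 fold change of 0.02; neither passed the test. CYP1A2 and LRAT were listed at 0 in every library of vehicle and this extract and were not tested. Against 20 µg/mL, 6 of the 10 were higher, with CYP1A1 at a log2 fold change of 2.76 ± 0.31 (SE; edgeR adjusted p = 0.00094). Against the 6 low-dose libraries of the other formulas 8 of the 10 were higher, with CYP1A1 at 1.90 (edgeR adjusted p = 3e-05). At 20 µg/mL none of the 10 was called against vehicle, and their median was 0.1.

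Of the 24 NRF2 targets on the list, which shares NQO1 with the AHR list, all were tested, 15 were higher and none was lower. The median log2 fold change was 0.43, and all 24 fold changes were above 0. Among them are the aldo-keto reductases, which reduce aldehydes, ketones and steroids. AKR1B10 (chromosome 7, 134527592 to 134541408) read 105, 103 and 111 CPM in vehicle and 212 and 208 CPM at 500 µg/mL. The 4 libraries of the lower doses lay between 94.1 and 119 CPM, around the vehicle values. The log2 fold change of AKR1B10 was 1.01 ± 0.061 (SE; edgeR adjusted p = 4e-06) against vehicle and 1.14 ± 0.068 (SE; edgeR adjusted p = 4e-06) against 20 µg/mL.

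AKR1C3 rose from 47.2, 41.8 and 45.2 CPM to 89.5 and 89.7 CPM, a log2 fold change of 1.02 ± 0.076 (SE; edgeR adjusted p = 2.1e-05). AKR1C2 rose from 18, 14.3 and 16.1 CPM to 35 and 30.3 CPM, a log2 fold change of 1.04 ± 0.099 (SE; edgeR adjusted p = 0.00015). AKR1C1 rose by 0.72 (edgeR adjusted p = 0.0012). The AKR1C genes are close copies of one another, so the division of reads among them is uncertain. All 3 differed in the same direction, but genes that share reads are not independent of one another.

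Genes of cystine uptake and glutathione synthesis rose as well. SLC7A11, the cystine transporter that feeds glutathione synthesis, read 92.4, 134 and 113 CPM in vehicle, 176 and 170 CPM at 20 µg/mL, 146 and 175 CPM at 100 µg/mL, and 283 and 260 CPM at 500 µg/mL. No library of any dose overlapped with vehicle. Its log2 fold change at 500 µg/mL was 1.29 ± 0.13 (SE; edgeR adjusted p = 0.0013) against vehicle and 0.65 ± 0.15 (SE; edgeR adjusted p = 0.13) against 20 µg/mL, which did not pass the test. At 20 µg/mL it was 0.63 (edgeR adjusted p = 0.071). GCLM, the modifier subunit of the enzyme that makes the glutathione precursor, rose from 43.6, 59.2 and 50.3 CPM to 102 and 99.4 CPM. Its log2 fold change was 1.01 ± 0.097 (SE; edgeR adjusted p = 0.00018) against vehicle and 0.67 ± 0.11 (SE; edgeR adjusted p = 0.014) against 20 µg/mL. GCLC, the catalytic subunit, rose from 76.0, 86.0 and 77.3 CPM to 131 and 122 CPM (log2 fold change 0.69 ± 0.069, SE; edgeR adjusted p = 0.00018).

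Further redox enzymes rose by smaller folds. TXNRD1, thioredoxin reductase, read 322, 342 and 316 CPM in vehicle and 492 and 485 CPM at 500 µg/mL, a log2 fold change of 0.60 (edgeR adjusted p = 0.00027). NQO1, a quinone reductase, read 472, 486 and 499 CPM against 670 and 688 CPM, a log2 fold change of 0.51 ± 0.060 (SE; edgeR adjusted p = 0.00078). HMOX1, which breaks down heme, rose from 10.8, 10.5 and 12.1 CPM to 20.2 and 17.6 CPM, whereas the 4 lower-dose libraries lay between 7.91 and 11.7 CPM. Its log2 fold change was 0.79 ± 0.14 (SE; edgeR adjusted p = 0.0093) against vehicle and 1.00 ± 0.16 (SE; edgeR adjusted p = 0.013) against 20 µg/mL. SRXN1, GSR, OSGIN1 and ME1 also rose, by log2 fold changes of 0.30 to 0.46.

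The 9 NRF2 targets that did not pass the test against vehicle had log2 fold changes from 0.06 to 0.32. They were the ferritin chains FTL and FTH1, the pentose phosphate enzymes PGD, TALDO1 and TKT, and ABCC3, TXN, PRDX1 and EPHX1. FTL read 1990, 1980 and 2320 CPM in vehicle, 2680 and 2460 CPM at 500 µg/mL and 1690 and 1740 CPM at 20 µg/mL. FTL was called against 20 µg/mL (log2 fold change 0.58; edgeR adjusted p = 0.015) but not against vehicle (0.32; edgeR adjusted p = 0.057). In all, 12 of the 24 were higher against 20 µg/mL and 21 of the 24 against the 6 low-dose libraries of the other formulas. None of the 24 was called at 20 µg/mL against vehicle, where the median was -0.03. Across the alternatives the number of NRF2 targets called higher ranged from 7, within batch E, to 18, with 9 without either treated library, and that of AHR targets from 4, within batch E, to 8. No member of either list was called lower in any of them.

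**Figure D1:**
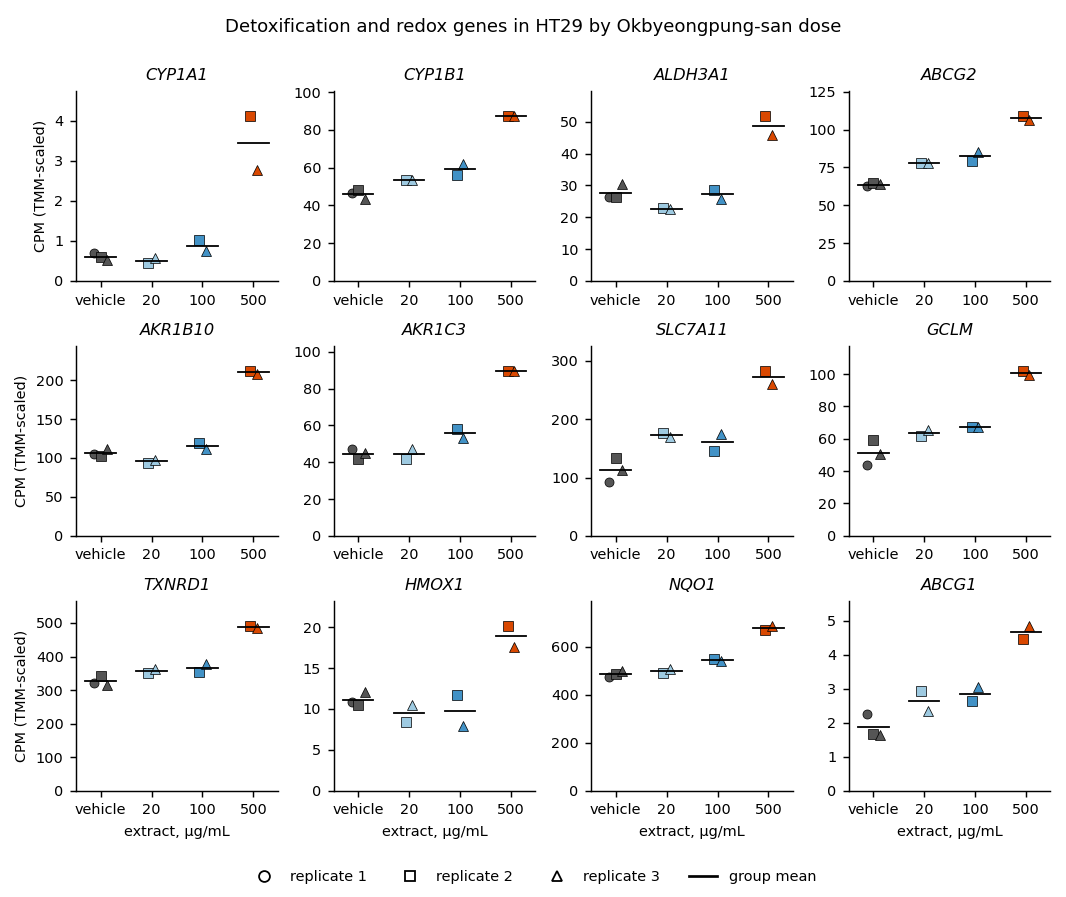
Levels of 12 genes in CPM (linear axes from 0) in the 3 vehicle libraries and the 2 libraries at each of 20, 100 and 500 µg/mL; symbols mark the replicate and bars the group mean. In all 12 both libraries at 500 µg/mL lie above the other 7, and the 2 treated libraries of CYP1A1 read 4.12 and 2.77 CPM.

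Promoter sequence was read for 3 of the risen genes and searched for letters that match short motifs of AHR and NRF2. RefSeq windows (GRCh38.p14) of the 250 bases before the gene start were searched on both strands for GCGTG, the core bound by AHR, and for TGACNNNGC, the core of the antioxidant response element bound by NRF2. The windows below lie on the minus strand of chr15:74725529-74725778, chr1:93909431-93909680 and chr6:83431052-83431301. They are written 5′ to 3′, and capitals mark GCGTG in CYP1A1 and the match to TGACNNNGC on either strand in GCLM and ME1.
CYP1A1: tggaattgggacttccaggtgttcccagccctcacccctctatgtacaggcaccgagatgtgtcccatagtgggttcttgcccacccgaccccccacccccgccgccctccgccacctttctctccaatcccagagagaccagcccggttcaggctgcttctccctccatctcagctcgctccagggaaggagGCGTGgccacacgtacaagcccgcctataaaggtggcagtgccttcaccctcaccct
GCLM: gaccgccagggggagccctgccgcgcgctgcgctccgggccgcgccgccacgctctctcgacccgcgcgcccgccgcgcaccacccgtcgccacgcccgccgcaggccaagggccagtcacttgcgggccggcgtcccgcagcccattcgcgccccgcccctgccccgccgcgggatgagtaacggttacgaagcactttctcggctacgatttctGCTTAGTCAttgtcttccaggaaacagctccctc
ME1: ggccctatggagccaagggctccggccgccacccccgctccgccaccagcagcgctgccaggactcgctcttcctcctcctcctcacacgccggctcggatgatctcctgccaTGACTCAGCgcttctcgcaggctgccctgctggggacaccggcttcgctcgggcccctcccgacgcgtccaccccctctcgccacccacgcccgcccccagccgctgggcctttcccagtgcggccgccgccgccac

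The match begins 57 bases before the start in CYP1A1, 34 in GCLM, where it lies on the opposite strand, and 137 in ME1, whose match to the core reads TGACTCAGC. ME1, the cytosolic malic enzyme that makes NADPH, read 75.0, 90.8 and 81.0 CPM in vehicle and 111 and 111 CPM at 500 µg/mL (log2 fold change 0.46 ± 0.076, SE; edgeR adjusted p = 0.0062). GCGTG is common: 32.2% of all 35116 windows hold it, beside 10 of the 18 windows of the 10 AHR targets found in the table (55.6%) and 9 of the 20 windows of the 16 NRF2 targets found (45%). TGACNNNGC stood in 10.9% of all windows, in 6 of the 20 NRF2 target windows (30%) and in 1 of the 18 AHR target windows (5.56%). Windows of 1 gene can overlap, and a match describes letters in the sequence and not a bound site. Whether AHR binds at the marked letters in CYP1A1, or NRF2 at those in GCLM and ME1, was not tested. A window without a match says nothing of the factor, since many response elements lie further from the start.

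Genes of cholesterol synthesis and uptake were lower at 500 µg/mL: 12 of the 25 tested were called lower and none higher, with a median log2 fold change of -0.26. INSIG1, which holds SREBP2 back when sterols are plentiful and is itself a target of it, had the smallest p of the list. It read 122, 131 and 125 CPM in vehicle and 83.5 and 86.6 CPM at 500 µg/mL. The lower doses were at or above vehicle, with 124 and 126 CPM at 100 µg/mL and 135 and 141 CPM at 20 µg/mL, so the treated libraries stood alone below the rest. The log2 fold change was -0.55 ± 0.063 (SE; edgeR adjusted p = 0.00066) against vehicle and -0.70 ± 0.069 (SE; edgeR adjusted p = 0.00046) against 20 µg/mL.

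TM7SF2, a sterol reductase of the pathway, fell from 36.5, 34.0 and 38.5 CPM to 23.3 and 22.7 CPM, a log2 fold change of -0.64 ± 0.075 (SE; edgeR adjusted p = 0.00073). LSS, lanosterol synthase, fell from 104, 92.3 and 89.5 CPM to 69.0 and 67.0 CPM (log2 fold change -0.46 ± 0.076, SE; edgeR adjusted p = 0.0061). The mevalonate enzymes MVK and MVD, the farnesyl diphosphate synthase FDPS, and SQLE, MSMO1, HSD17B7, EBP and NSDHL of the later steps also fell, by log2 fold changes between -0.40 and -0.26.

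HMGCS1, a synthase early in the mevalonate pathway, read 168, 183 and 161 CPM in vehicle and 136 and 142 CPM at 500 µg/mL, and missed the threshold against vehicle (log2 fold change -0.28; edgeR adjusted p = 0.055). The 20 µg/mL libraries read 196 and 207 CPM, above all of these, and against them HMGCS1 was called lower (-0.54 ± 0.082, SE; edgeR adjusted p = 0.0089). In all, 7 of the 25 were called lower against 20 µg/mL and 22 of the 25 against the low-dose libraries of the other formulas. At 20 µg/mL against vehicle none was called and the median was 0.08. The list's median against vehicle lay between -0.29 and -0.24 in every alternative, but its calls ranged from 0, within batch E, to 19, with 4 with batch as a term, 6 without vehicle replicate 3 and 2 without either treated library.

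Of 8 LXR targets tested 3 were called, all higher; 1 was called without either treated library, 1 by the DESeq2 test, 2 without vehicle replicate 3 and 0 within batch E. ABCG1, a cholesterol exporter, had the largest log2 rise among called genes with a mean of at least 2 CPM and no overlap between groups, from 2.26, 1.68 and 1.65 CPM to 4.47 and 4.85 CPM. Its log2 fold change was 1.32 ± 0.18 (SE; edgeR adjusted p = 0.0021), and the lower doses lay between at 2.34 to 3.04 CPM. ABCA1, the other main exporter, did not share that order. It read 4.22, 4.63 and 4.50 CPM in vehicle, 7.68 and 7.38 CPM at 20 µg/mL and 7.00 and 6.34 CPM at 500 µg/mL, so it was called against vehicle at both doses (log2 fold changes 0.78 and 0.62; edgeR adjusted p = 0.019 and 0.012). MYLIP, a ubiquitin ligase, rose by 0.38 (edgeR adjusted p = 0.033). Against 20 µg/mL 0 of the 8 were called, and ABCG1 had a log2 fold change of 0.83 (edgeR adjusted p = 0.12). Against the low-dose libraries of the other formulas 2 of the 8 were higher, with ABCG1 at 0.85 (edgeR adjusted p = 0.0013). For ABCG1 against vehicle the DESeq2 test gave no adjusted p.

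Among fatty acid genes FASN was not called (log2 fold change -0.15; edgeR adjusted p = 0.4) and 2 of 15 synthesis genes were, ME1 higher and ACSS2, acetyl-CoA synthetase, lower. ACSS2 read 16.9, 14.3 and 14.7 CPM in vehicle and 9.01 and 7.84 CPM at 500 µg/mL, a log2 fold change of -0.83 ± 0.12 (SE; edgeR adjusted p = 0.0023). PDK4, a kinase that slows glucose oxidation, and CPT1A, the gate of fatty acid entry into mitochondria, were the 2 of 15 fatty acid oxidation genes that were called, both higher, with 0 called without treated replicate 2 1 without treated replicate 3 or vehicle replicate 3, and 4 without vehicle replicate 1. PDK4 read 5.00, 4.79 and 4.61 CPM in vehicle and 8.97 and 7.68 CPM at 500 µg/mL (log2 fold change 0.82 ± 0.13, SE; edgeR adjusted p = 0.0051).

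Of the goblet and secretory genes, 5 of 18 tested were lower and none higher, with a median log2 fold change of -0.38. REG4, a secreted lectin of intestinal secretory cells, fell from 22.3, 23.9 and 26.7 CPM to 12.7 and 13.4 CPM. The lower doses lay between, at 16.8 to 21.1 CPM, and the log2 fold change was -0.87 ± 0.11 (SE; edgeR adjusted p = 0.00091). CREB3L1, a transcription factor of secretory cells, read 218, 173 and 193 CPM against 117 and 113 CPM (log2 fold change -0.73 ± 0.089, SE; edgeR adjusted p = 0.00091). MUC13, a membrane mucin, read 100, 109 and 113 CPM against 77.1 and 75.0 CPM (log2 fold change -0.47 ± 0.069, SE; edgeR adjusted p = 0.0031).

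The lineage factor SPDEF and the mucin-folding protein AGR2 fell by 0.42 and 0.30 on the log2 scale (edgeR adjusted p = 0.02 and 0.035). MUC2, the main secreted mucin, had a log2 fold change of -1.04 ± 0.31 (SE), but its vehicle libraries ranged from 16.0 to 31.2 CPM beside 12.1 and 9.33 CPM; the groups did not overlap, and it did not pass the test (edgeR adjusted p = 0.12). MUC5AC read 329, 209 and 245 CPM against 246 and 214 CPM, with overlapping libraries. Of the 5 called, REG4, CREB3L1 and MUC13 were also called lower than at 20 µg/mL. The calls in the list came to 1 within batch E, 3 without vehicle replicate 3 and 2 without either treated library, with medians from -0.49 to -0.34. VIL1, villin of the brush border, was the 1 of 14 epithelium markers called, with a log2 fold change of -0.28 (edgeR adjusted p = 0.027). VIL1 kept its call in 9 of 15 alternatives and lost it, among others, with batch as a term and without vehicle replicate 3.

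**Figure D2:**
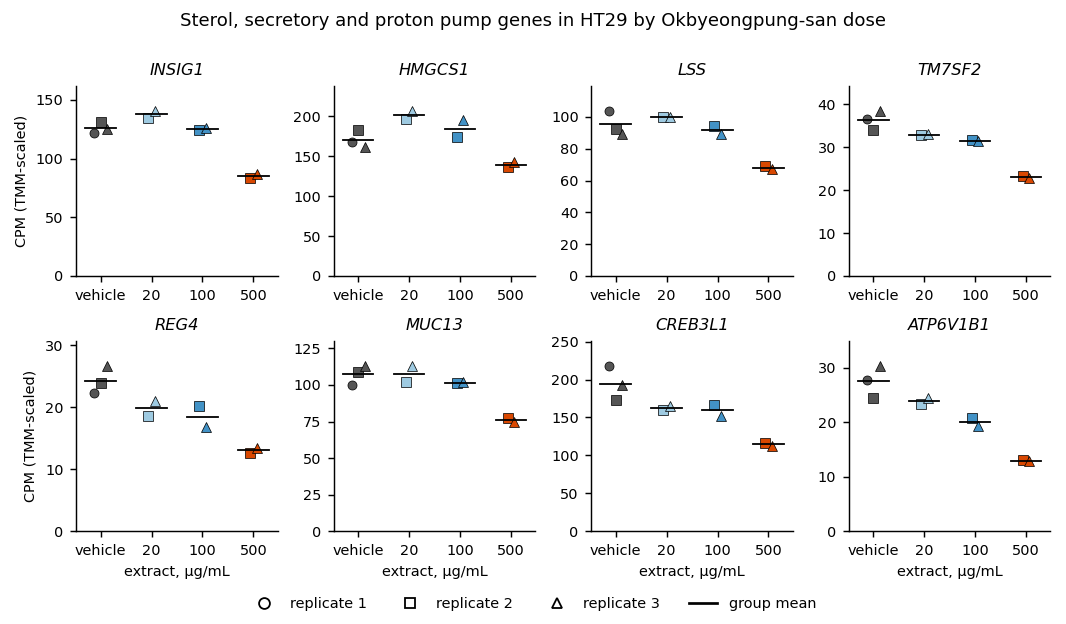
Levels of 8 genes in CPM (linear axes from 0) in vehicle and at 20, 100 and 500 µg/mL; symbols mark the replicate and bars the group mean. Both libraries at 500 µg/mL lie below the other 7 in each panel, and INSIG1 and HMGCS1 are highest at 20 µg/mL.

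The remaining largest rises against vehicle were in SLC38A4, an amino acid transporter, AADAC, an esterase that hydrolyses drugs and lipids, CLIP4 and GCOM1. SLC38A4 rose from 3.07, 3.19 and 2.66 CPM to 6.79 and 7.09 CPM, clear of the lower doses at 3.80 to 4.40 CPM (log2 fold change 1.24 ± 0.13, SE; edgeR adjusted p = 0.00029). AADAC rose by 0.97 (edgeR adjusted p = 0.0055) and CLIP4 by 0.87 (edgeR adjusted p = 0.0053). GCOM1 overlaps neighbouring genes and its assignment is uncertain; its 20 µg/mL libraries (7.44 and 8.65 CPM) were as high as those at 500 µg/mL (8.55 and 7.94 CPM).

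The largest falls among genes that met the naming rule were led by VGLL1, a cofactor of TEAD transcription factors. VGLL1 fell from 4.69, 4.79 and 5.44 CPM to 2.32 and 2.08 CPM, a log2 fold change of -1.14 ± 0.16 (SE; edgeR adjusted p = 0.0029), while the lower doses lay at 3.89 to 5.10 CPM. ATP6V1B1, a subunit of the proton-pumping V-ATPase, had the smallest adjusted p of these falls, with 27.7, 24.5 and 30.3 CPM in vehicle and 13 and 12.9 CPM at 500 µg/mL. Its log2 fold change was -1.06 ± 0.096 (SE; edgeR adjusted p = 0.0001) against vehicle and -0.88 ± 0.10 (SE; edgeR adjusted p = 0.0015) against 20 µg/mL. The transporters SLC14A1 (urea) and SLC6A20 (imino acids) fell by 1.02 and 0.99 on the log2 scale (edgeR adjusted p = 0.0051 and 0.0048). SLC6A20 read 6.81, 6.03 and 7.20 CPM in vehicle and 3.66 and 2.88 CPM at 500 µg/mL.

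CD200, a surface protein that restrains myeloid cells, RASSF10, the chloride channel family members CLIC3 and CLIC5, DEPP1, a FOXO-responsive gene, and QPRT, an enzyme of NAD synthesis, fell by 0.83 to 0.95 on the log2 scale. CLIC5 read 13.2, 13.8 and 13.7 CPM in vehicle and 8.16 and 6.24 CPM at 500 µg/mL, and QPRT 13.6, 13.5 and 14.7 CPM against 7.85 and 7.52 CPM. PKD1P6-NPIPP1, a readthrough of duplicated sequence, is uncertain in the same way as GCOM1. Of the 24 genes with the largest rises and falls, 10 kept their call in every alternative that gave them a value: AKR1B10, AKR1C2, AKR1C3, ALDH3A1, CYP1B1, GCLM, SLC38A4, SLC7A11, ATP6V1B1 and REG4.

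Against 20 µg/mL the largest rises by the same rule were AKR1B10, AKR1C2, ALDH3A1, AKR1C3 and HMOX1, all described above. Among the largest falls were IFIT1, SLC6A20, VGLL1 and CTTNBP2. IFIT1, an interferon-induced protein that binds foreign RNA, read 4.72 and 5.33 CPM at 20 µg/mL and 2.22 and 2.24 CPM at 500 µg/mL, a log2 fold change of -1.17 ± 0.16 (SE; edgeR adjusted p = 0.005). Vehicle lay between, at 3.16, 3.07 and 3.49 CPM, and IFIT1 was not called against it (log2 fold change -0.52; edgeR adjusted p = 0.076). By edgeR 0 of the 27 interferon response genes tested were called against vehicle (6 at an unadjusted p below 0.05; 0 by DESeq2 and 0 by limma voom), and 1, IFIT1, was called against 20 µg/mL.

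Other groups were called lower than vehicle at both 500 and 20 µg/mL. Of 18 heat shock genes 6 were lower at 500 µg/mL (median log2 fold change -0.12) and 4 at 20 µg/mL (median -0.21), and none was called by edgeR between the 2 doses. The 6 calls became 2 without treated replicate 2, 1 without treated replicate 3, 3 without vehicle replicate 3, 9 without vehicle replicate 1 and 0 within batch E. DNAJB1, a co-chaperone of HSP70, read 109, 112 and 114 CPM in vehicle, 78.7 and 79.2 CPM at 500 µg/mL and 74.6 and 81.0 CPM at 20 µg/mL. HSPA1A and HSPA1B, the inducible HSP70 genes, are near-identical copies and are uncertain apart. Of 19 immediate early genes, KLF6, JUND, NR4A1 and MYC were lower at 500 µg/mL, and KLF6, MYC and FOSL1 at 20 µg/mL; the 4 calls at 500 µg/mL became 1 without either treated library, 2 without vehicle replicate 3 and 0 within batch E. KLF6 read 131, 151 and 154 CPM in vehicle, 96.6 and 94.6 CPM at 500 µg/mL and 101 and 107 CPM at 20 µg/mL.

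Of 13 mitochondrially encoded genes 1, MT-ND6, was called lower at 500 µg/mL, and the median log2 fold change was -0.37 at 500 µg/mL and -0.35 at 20 µg/mL. Against 20 µg/mL the median at 500 µg/mL was -0.02. The number called lower at 500 µg/mL was 8 by the DESeq2 test, 2 by limma voom, 10 with no filter, 7 with all 30 libraries and 10 without vehicle replicate 2, but 0 without either treated library, without vehicle replicate 3 and within batch E. The share of mitochondrial counts, which includes the genes of this last list, was 11.48% to 13.93% in vehicle. It was 10.25% to 10.8% in the libraries of 20 and 500 µg/mL. At 100 µg/mL it was 12.17% in replicate 2, within the vehicle range, and 10.34% in replicate 3. The heat shock and immediate early lists of that replicate 2 summed to 9040 and 854 CPM, below every vehicle library (9270 to 10900 and 1020 to 1120 CPM). The part of the mitochondrial share in the results was not tested.

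**Figure D3:**
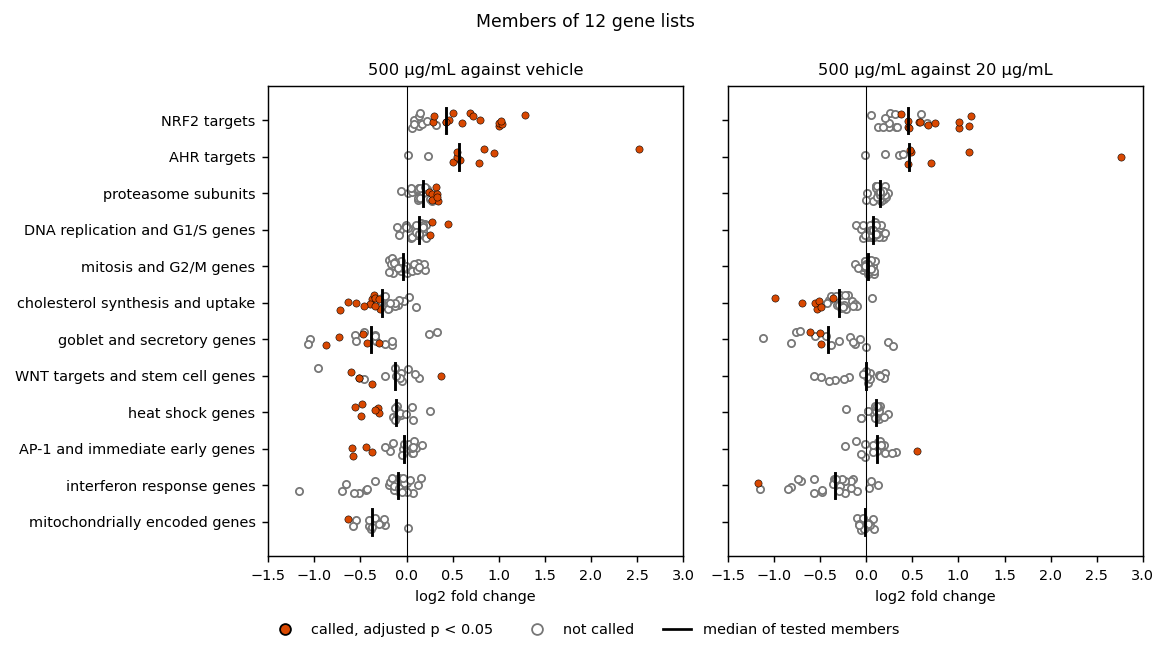
Log2 fold changes of the tested members of 12 lists for 500 µg/mL against vehicle (left) and against 20 µg/mL (right); filled points were called and bars are list medians. NRF2, AHR, cholesterol and goblet lists lie on the same side in both panels, whereas the heat shock median is -0.12 on the left and 0.1 on the right.

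Proteasome subunits were slightly higher: 7 of 29 tested were called, with a median log2 fold change of 0.17. PSMD12 read 182, 219 and 195 CPM in vehicle and 246 and 245 CPM at 500 µg/mL, with 233 and 235 CPM at 100 µg/mL and 233 and 222 CPM at 20 µg/mL between them. None of the 29 was called against 20 µg/mL, and the 7 calls fell to 0 within batch E, with batch as a term, with only the 5 libraries in the fit, without vehicle replicate 3 and without either treated library. Among heme and iron genes HMOX1, TFRC (the transferrin receptor) and FECH (the last enzyme of heme synthesis) were the 3 of 14 called, all higher; 0 were called without either treated library and 1 within batch E. FECH read 15.1, 16.8 and 17.0 CPM in vehicle and 22.8 and 22.3 CPM at 500 µg/mL (log2 fold change 0.50 ± 0.079, SE; edgeR adjusted p = 0.0051). Of 7 PXR and CAR targets tested, UGT1A1 and CYP3A5 were higher. UGT1A1 shares exons with UGT1A6 of the AHR list, so the 2 are not independent of one another. UGT1A1 kept its call in 14 of 15 alternatives and CYP3A5 in 8 of 15, and neither kept it within batch E. With batch as a term, without vehicle replicate 3 or without replicate 2 of 100 µg/mL, 1 of the 7 was called.

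WNT targets were mixed, with 1 of 16 called higher and 4 lower, but 0 without treated replicate 2, and 2 lower without treated replicate 3 or without vehicle replicate 3. LGR5, a stem cell receptor, rose by 0.37 (edgeR adjusted p = 0.015), whereas SOX4, SP5, EPHB3 and MYC were lower and AXIN2, a direct readout of the pathway, had a log2 fold change of -0.06 (edgeR adjusted p = 0.69). Of 32 DNA replication genes 3 were called higher, among them RFC3, a clamp loader subunit, by 0.45 (edgeR adjusted p = 0.0099), with 0 called without either treated library, 1 without vehicle replicate 3 and 5 without vehicle replicate 1. By edgeR 0 of 25 mitosis genes were called (5 at an unadjusted p below 0.05; 0 by DESeq2 and 0 by limma voom), and the proliferation marker MKI67 read 948, 1050 and 1160 CPM in vehicle and 1050 and 1020 CPM at 500 µg/mL. The stress and damage genes CDKN1A, DDIT3 and CXCL8 were not called, with log2 fold changes of -0.20, -0.30 and -0.06. Of 25 ATF4 and CHOP stress genes 2 were called higher, and of 20 endoplasmic reticulum chaperones 1 was called lower, beside 2.19% of all genes in each direction. The 2 stress gene calls became 0 with batch as a term and without vehicle replicate 3, while the chaperone call stayed at 1 in both. Neither the stress gene calls nor the chaperone call held in the fits that left 1 treated library. Without vehicle replicate 1 the stress genes had 3 called higher and 2 lower, and the chaperones 2 higher and 3 lower. By edgeR 0 of 50 ribosomal protein genes were called (5 at an unadjusted p below 0.05; 2 by DESeq2 and 0 by limma voom). By edgeR 0 of 30 nuclear respiratory chain genes and 0 of 15 NF-kB genes were called (6 each at an unadjusted p below 0.05; 0 by DESeq2 and 0 by limma voom).

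**Figure D4:**
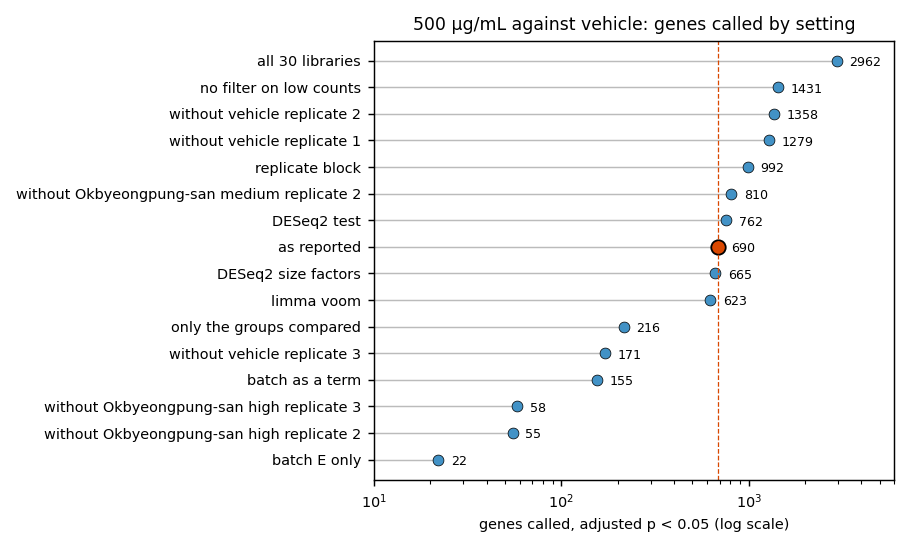
Genes called at 500 µg/mL against vehicle (adjusted p below 0.05, log scale) in the fit reported here (large point, 690) and in each alternative. The count runs from 22, within batch E, to 2962, with all 30 libraries in the fit.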

How the data were processed

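Per the labels' protocols, RNA with an integrity number above 7 was made into directional mRNA libraries and read as 100 bp pairs. The values the authors deposited are expected counts for each gene, without scaling across libraries. The tools listed, per the submitters' processing notes, are RSEM 1.3.3, STAR 2.7.3a, Trim Galore 0.6.5 and FastQC 0.11.9, with the build GRCh38; an annotation release is not given in the sources used here. Each of the 60675 rows names a gene; 56558 were given a symbol and 57055 have GENCODE 29 coordinates. Besides 30 named columns the table has 30 with neither name nor values, which were left aside.

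Expected counts were rounded. Genes were filtered with filterByExpr, scaled by TMM and tested with edgeR 4.0.16 (R 4.3.3) by the robust quasi-likelihood F-test. The fit held 9 libraries, vehicle and the 3 doses, which share 1 estimate of the spread (biological coefficient of variation 7.03%). That estimate assumes groups that vary alike. Between libraries of 1 group, chi-square per degree of freedom was 20.6, 20.2 and 11.2 in vehicle and 10.4 at the medium dose. It was 2.73 at the high dose and 2.49 at the low dose. By this measure libraries differed more in vehicle than at the high and low doses. SE and p-values of the shared fit take no account of that. The comparison with Soshiho-tang and Yijin-tang used 15 libraries. P-values were adjusted by the Benjamini-Hochberg method over all genes of a comparison. SE was taken from the F statistic. The script was tested on simulated data. Library totals were 18.477 M to 36.162 M. Counting error weighs more on genes of a few CPM or less, such as CYP1A1, VGLL1, SLC6A20 and ABCG1, than on genes of higher level.

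Named genes are the 12 largest rises and 12 largest falls that were called, had a mean of at least 2 CPM and did not overlap between groups (5 and 5 against 20 µg/mL), the 5 members of lowest p in each list described, and a fixed set of markers. Other list members, such as TXNRD1 and FTL, are named to account for the list. Single values of some list members are not reported here. Of 813 genes in 43 lists, 811 were found. The members and lists were chosen with earlier results of these data known. Alternatives were DESeq2 1.42.0 size factors, its test, limma 3.58.1 voom, no filter, other sets of libraries, batch, replicate number and leaving out each library. Soyo-san and other doses of the other formulas enter only the alternative with all 30 libraries.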

Additional observations from a re-analysis of the deposited data

How the results depend on the processing

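The counts of called genes depended on which libraries were fitted. Of the 99 named and called genes, 13 kept their call in every alternative that gave them a value, and none changed sign. CYP1A1, 1 of the 13, had a value in 14 alternatives, since the DESeq2 test gave it no adjusted p. The DESeq2 test gave none for ABCG1 either, which lost its call in another alternative. The sign is no test of stability here. In all 690 called genes the treated and vehicle libraries did not overlap, so leaving out a library could hardly reverse it. The 690 genes called at 500 µg/mL against vehicle became 665 with DESeq2 size factors, 762 with the DESeq2 test, 623 with limma voom, 810 without replicate 2 of 100 µg/mL, 1431 with no filter on low counts, 216 with only the groups compared, 2962 with all 30 libraries, 155 with batch as a term and 22 in batch E only. Leaving out 1 library gave 55 to 1358. Of the 690, 544 were also called by the DESeq2 test and 151 with batch as a term. The cause of these shifts was not tested. The fits with only the groups compared or batch E hold fewer libraries. With only the groups compared the count fell against vehicle but rose from 88 to 938 against 20 µg/mL. Against the other formulas' low doses it rose from 578 to 1730.

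The 345 higher and 345 lower genes became 1600 and 1362 with all 30 libraries, 16 and 6 in batch E only, 75 and 80 with batch as a term, 752 and 679 with no filter, and 116 and 100 with only the groups compared; leaving out 1 library gave 35 to 776 higher and 17 to 691 lower. The 145 genes past 1.5-fold became 93 with the DESeq2 test, 302 with all 30 libraries, 22 in batch E only, 72 with batch as a term, 273 with no filter and 90 with only the groups compared, and 44 to 196 without 1 library.

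For 500 against 20 µg/mL (88) the counts were 347 with all 30 libraries, 6 in batch E only, 55 with batch as a term, 225 with no filter, 938 with only the groups compared and 12 to 78 without 1 library. For 100 µg/mL against vehicle (17) they were 144 with the DESeq2 test, 1453 with all 30 libraries, 7 in batch E only, 6 with batch as a term, 431 with no filter, 3 with only the groups compared and 3 to 318 without 1 library. For 20 µg/mL against vehicle (43) they were 547 with the DESeq2 test, 2426 with all 30 libraries, 1 in batch E only, 5 with batch as a term, 1115 with no filter, 18 with only the groups compared, 233 without replicate 2 of 100 µg/mL and 0 to 913 without 1 library. Without replicate 3 of 20 µg/mL, where edgeR called 0 genes (1659 at an unadjusted p below 0.05), 1 library was left in that group. Against the other formulas' low doses (578) they were 921 with all 30 libraries, 152 in batch E only, 384 with batch as a term, 1730 with only the groups compared and 164 to 621 without 1 library.

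Same-numbered libraries of different groups correlated between -0.081 and 0.071 in their deviations from the group mean. These values cannot show whether replicate numbers pair the libraries. With 2 libraries per dose the deviations mirror each other, and the replicate number of a dose coincides with its batch. With the replicate block the counts were 992 (458 higher, 534 lower, 168 past 1.5-fold) at 500 µg/mL against vehicle, 156 against 20 µg/mL, 90 at 100 µg/mL, 468 at 20 µg/mL and 584 against the other formulas' low doses.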
